A study of Mus musculus with 7 samples.

Results

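Cytosolic ribosomal protein genes were examined in microglia, the resident macrophages of the brain, from B2m knockout and B2m wildtype mice. The genes were those whose probe annotation symbol is Rpl or Rps with a number and at most the ending a, x, l or l1, together with the stalk proteins Rplp0 and Rplp1 and the small subunit protein Rpsa. This gave 62 genes of 19505 with a symbol on the array, 39 of the large subunit and 23 of the small subunit, each read by 1 probe set. Other genes that the rule would admit, such as Rplp2, Rpl10 and Rps27, were matched to no row and are not analysed here. The knockout group comprised 4 samples of genotype 5xFAD;B2m-/- and the wildtype group 3 samples of genotype 5xFAD;B2m+/+, all on the C57BL/6 strain and each on 1 array. Brain cells that excluded the viability stain and carried CD45 and CD11b were sorted, a gate that other myeloid cells also pass. Both groups carried the 5xFAD transgenes, which drive mutant human amyloid precursor protein and presenilin from a neuronal promoter and produce amyloid plaques. B2m, beta-2-microglobulin, pairs with the heavy chains of MHC class I and is missing from every cell of a germline knockout, so the comparison does not isolate B2m loss in microglia. Age, sex and litter were not given in the labels. The labels do not say whether each array represents its own animal, and the p-values therefore reflect only how much these arrays vary, which can be technical.

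The cytosolic ribosome translates nearly all cellular mRNAs. Its small subunit reads the mRNA and its large subunit joins the amino acids, and each is built from ribosomal RNA and a fixed set of proteins made in nearly equal amounts. The mRNAs of these proteins begin with a tract of pyrimidines at the 5′ end, the TOP motif, through which the kinase mTOR and the RNA-binding protein Larp1 adjust their translation together. Most ribosomal protein genes also have processed pseudogenes, and a few have expressed paralogs that are used in particular tissues, such as Rpl3l in striated muscle and Rpl10l and Rpl39l in testis.

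The start sites of the genes were read from RefSeq (GRCm38.p6) to see how many carry this shared feature. Of the 62 genes, 49 had an entry with 60 listed starts. A tract was counted where the first transcribed base was C and at least the next 4 bases were C or T. It was present at a start of 12 of the 49 genes (24.5%), against 234 of 8108 other tested genes (2.89%) and 813 of 27025 genes in the whole table (3.01%). The tract stood at a start of 7 of 30 large subunit genes (23.3%) and 5 of 19 small subunit genes (26.3%). A run of at least 8 bases of C or T anywhere from 10 bases before the start to the 20th base after it was present in 36.7% of the 49 genes and 13.9% of the other tested genes. That second count was added after the analysis plan was fixed. Of all listed starts 60.4% lie at the outer end of the annotated gene. The starts used in these cells were not measured, so a gene without a counted tract may still carry one. The lines below give 5 genes with a tract, read 5′ to 3′ over 30 bases with the tract in capitals and the start as the first capital. Rpl15 and Rpl35 have the longest tracts. Rps6, Rpl35a and Rps15a also carry a tract and are described below, Rpl35a and Rps15a because of their small p. The choice of these 5 was therefore not independent of expression.
Rpl15 (chr14:18270967-18270996, minus strand): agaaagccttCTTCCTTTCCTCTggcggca
Rpl35 (chr2:39005112-39005141, minus strand): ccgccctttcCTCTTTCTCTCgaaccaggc
Rps6 (chr4:86857348-86857377, minus strand): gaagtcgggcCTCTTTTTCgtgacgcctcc
Rpl35a (chr16:33056472-33056501, plus strand): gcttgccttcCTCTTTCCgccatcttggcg
Rps15a (chr7:118116128-118116157, minus strand): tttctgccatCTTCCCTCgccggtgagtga
Rpl22l1, the member with the largest difference between genotypes, had no tract by this definition, because its listed start is a G. A run of 10 C or T bases follows that G directly and is in capitals here.
Rpl22l1 (chr3:28805498-28805527, plus strand): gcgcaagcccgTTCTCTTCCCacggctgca
The 12 genes with a tract had a median difference, knockout minus wildtype, of 0.29 on the log2 scale (0.093 to 0.37), and 4 of them were higher at an unadjusted p under 0.05. The 37 genes without a counted tract had a median of 0.21 (-0.10 to 0.59), and 13 were higher at that threshold. It was passed in the same direction by 8.39% of all tested genes. The 2 ranges overlapped.

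Values are on the log2 scale as the authors' RMA processing left them, and each difference is knockout minus wildtype. Array medians over all rows lay between 7.68 and 7.75, and correlations between arrays over the 10004 tested genes between 0.946 and 0.980. B2m itself was 10.41 ± 0.13 in knockout microglia (SD, n = 4) and 13.41 ± 0.017 in wildtype microglia (SD, n = 3), and fell by 2.99 (limma adjusted p = 1.54e-07). A background level was set on each array at percentile 95 of the rows tagged as negative controls (9.35 to 9.55). Of 10 listed microglial markers 9 were measured, among them P2ry12, Tmem119, Cx3cr1 and Csf1r, and all 9 exceeded that level on all 7 arrays.

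Nearly all ribosomal protein genes had small positive differences, and no single gene passed the threshold. Of the 62 genes, all of which passed the filter on dim genes, 60 had a difference above 0 and 2 below it, with a median of 0.21 and a range from -0.14 to 0.59. Over all tested genes 48.6% had a difference above 0 and the median was -0.0055. In limma 0 of the 62 reached an adjusted p under 0.05, against 5 of 10004 genes (0.05%) in all. At an unadjusted p under 0.05, 19 members (30.6%) were higher and 0 were lower, where the shares over all tested genes were 8.39% higher and 3.54% lower. The lowest knockout value lay above the highest wildtype value for 15 members (24.2%), against 7.1% of all tested genes, and the reverse held for 0 members, against 3.8%. The count of 19 depended on single arrays. Leaving out wildtype replicate 1 gave 5 of 61 genes, leaving out wildtype replicate 2 gave 11 of 62 and leaving out wildtype replicate 3 gave 31 of 62. Over all tested genes the shares in these 3 settings were 4.79%, 5.84% and 9.61%, beside 8.2%, 17.7% and 50% of members. Leaving out knockout replicates 1, 2 and 3 in turn gave 9 of 62, 9 of 61 and 10 of 61 members (14.5%, 14.8% and 16.4%), beside 7.02%, 7.21% and 6.36% of all tested genes. Leaving out knockout replicate 4 gave 25 of 62 members (40.3%), beside 8.59% of all tested genes. With wildtype replicates 1 and 2 both left out, 1 of 61 members (1.64%) was higher, beside 2.17% of all tested genes.

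**Figure D1:**
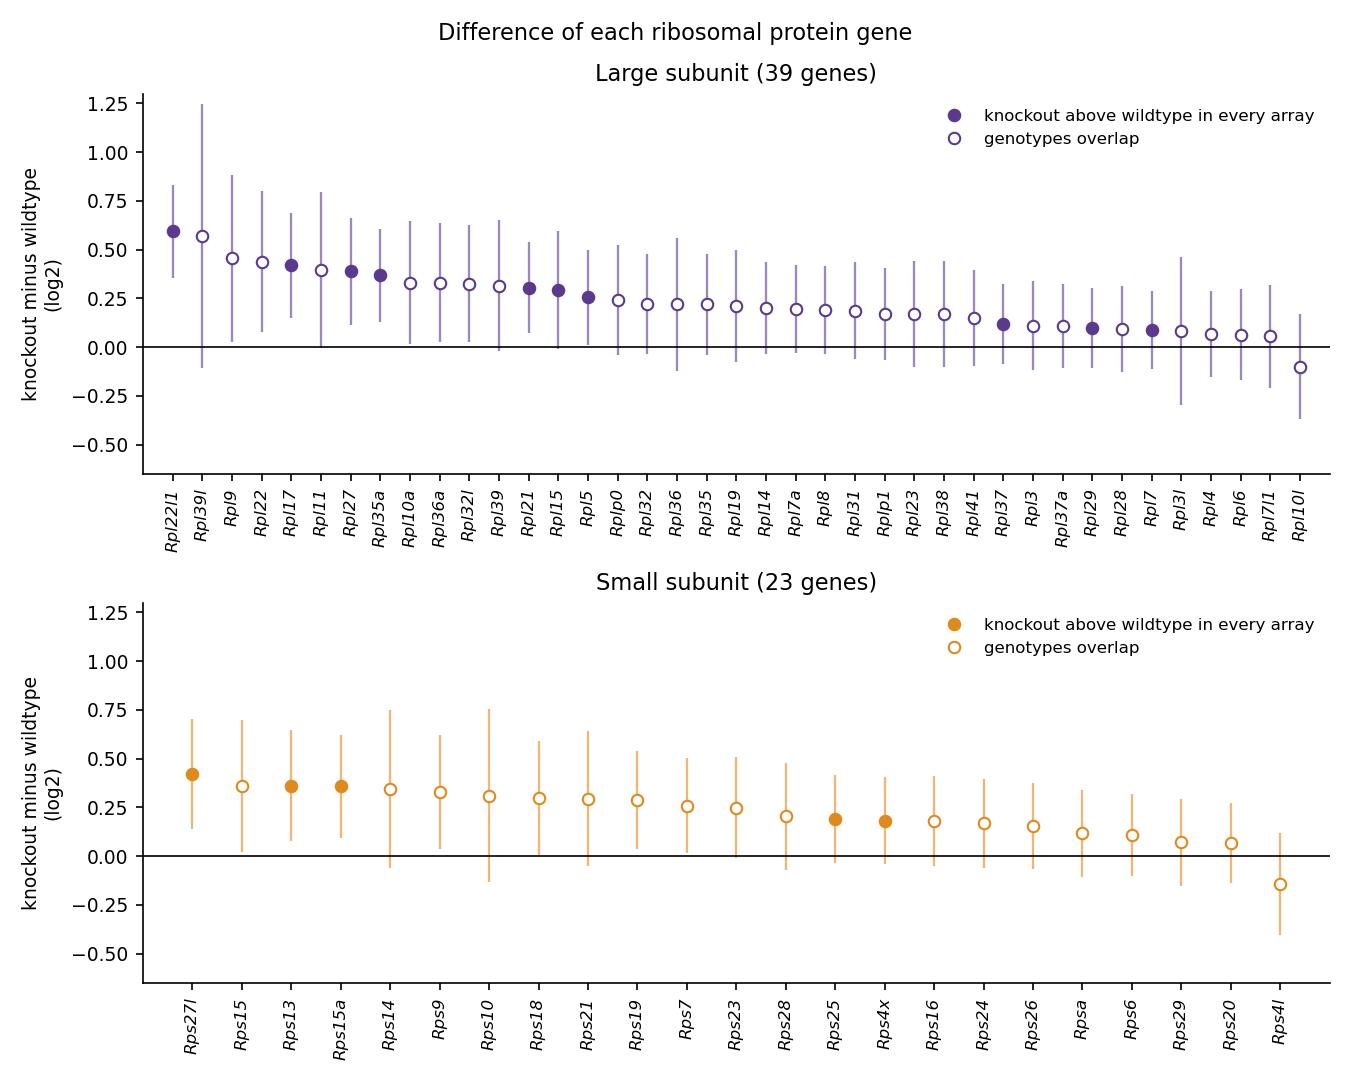
Difference between knockout and wildtype microglia (log2, points) with its 95% confidence interval from limma (bars) for the 39 large subunit genes and the 23 small subunit genes, ordered by size. Filled points mark the 15 genes with every knockout array above every wildtype array; Rpl10l and Rps4l are the only 2 of the 62 points below 0, and Rpl39, Rpl39l, Rpl10l and Rpl3l lay below the background level on every array.

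The large subunit gene with the smallest p was Rpl22l1 (Entrez Gene 68028), which encodes a paralog of Rpl22. It read 10.59, 10.52, 10.50 and 10.37 in knockout replicates 1 to 4, against 9.78, 9.85 and 10.07 in wildtype replicates 1 to 3. Every knockout array lay above every wildtype array. The difference was 0.59 (SE 0.11, limma adjusted p = 0.183), 1.51-fold with a 95% confidence interval of 1.28 to 1.78, and did not pass. Over the 19 alternatives its adjusted p ran from 0.0674 to 0.999. Rpl17 (Entrez Gene 319195), a protein near the exit of the tunnel for the growing chain, read 11.08, 11.15, 10.81 and 10.94 in knockout arrays, against 10.43, 10.54 and 10.76 in wildtype arrays. The genotypes did not overlap, and knockout replicate 3 and wildtype replicate 3 lay closest. Rpl35a (Entrez Gene 57808), mutated in some human patients with Diamond-Blackfan anaemia, a failure of red cell production, read 12.66, 12.52, 12.43 and 12.46 in knockout arrays, against 12.05, 12.09 and 12.31 in wildtype arrays. The differences of Rpl17 and Rpl35a were 0.42 (SE 0.12) and 0.37 (SE 0.11), with limma adjusted p of 0.315 and 0.320.

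Rpl27 and Rpl21, both structural proteins of the large subunit, likewise had knockout values above all wildtype values. Rpl27 averaged 12.19 ± 0.081 in knockout arrays (SD, n = 4) and 11.80 ± 0.24 in wildtype arrays (SD, n = 3). Rpl21 averaged 11.36 ± 0.063 in knockout arrays (SD, n = 4) and 11.05 ± 0.15 in wildtype arrays (SD, n = 3). The knockout values of both genes lay close together and the wildtype values were spread, lowest in replicate 1 and highest in replicate 3.

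Rpl5 and Rpl11, which carry the small 5S RNA into the large subunit and, when not built in, bind the p53 inhibitor Mdm2, both had positive differences. Rpl5 read 12.96, 12.97, 12.89 and 12.81 in knockout arrays, against 12.45, 12.71 and 12.80 in wildtype arrays. Rpl11 read 11.88, 11.92, 11.82 and 11.63 in knockout arrays, against 10.93, 11.53 and 11.80 in wildtype arrays. The genotypes were narrowly apart for Rpl5 and overlapped for Rpl11, whose lowest value by far was wildtype replicate 1. Their differences were 0.26 (SE 0.11) and 0.40 (SE 0.18), with limma adjusted p of 0.405 and 0.424. Without wildtype replicate 1 they were 0.15 and 0.15.

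The stalk proteins, which recruit elongation factors, had differences on either side of the median of all members, 0.21. Rplp0 differed by 0.24 (SE 0.13) and Rplp1 by 0.17 (SE 0.11), with limma adjusted p of 0.486 and 0.550. The difference of Rplp0 was 0.11 when wildtype replicate 1 was left out. Rplp0 averaged 10.91 ± 0.11 in knockout arrays (SD, n = 4) and 10.67 ± 0.24 in wildtype arrays (SD, n = 3). Among the brightest members, Rpl37a differed by 0.11 (95% confidence interval -0.11 to 0.32) and Rplp1 by 0.17 (-0.065 to 0.41). Small differences were also found for the core proteins Rpl4 at 0.067 (-0.15 to 0.29) and Rpl6 at 0.063 (-0.17 to 0.30). These intervals include 0 and also the median of all members.

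In the small subunit, Rps27l (Entrez Gene 67941) had the smallest p. It encodes a paralog of Rps27 and is a known target of p53. Rps27l read 11.23, 11.17, 11.13 and 10.995 in knockout arrays, against 10.46, 10.72 and 10.96 in wildtype arrays. Every knockout array exceeded every wildtype array, and knockout replicate 4 lay close to wildtype replicate 3. The difference was 0.42 (SE 0.13, limma adjusted p = 0.320). Rps15a read 11.64, 11.61, 11.46 and 11.34 in knockout arrays, against 10.97, 11.17 and 11.32 in wildtype arrays. Rps13, which binds near the platform of the small subunit, read 11.46, 11.72, 11.50 and 11.37 in knockout arrays, against 10.91, 11.28 and 11.28 in wildtype arrays. Both genes kept the genotypes apart and differed by 0.36, with limma adjusted p of 0.343 and 0.348. The difference of Rps13 was 0.24 when wildtype replicate 1 was left out.

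Rps9 and Rps19 were higher at an unadjusted p under 0.05 with overlapping genotypes. Rps19, the gene most often mutated in human Diamond-Blackfan anaemia, averaged 10.45 ± 0.12 in knockout arrays (SD, n = 4) and 10.16 ± 0.16 in wildtype arrays (SD, n = 3), whereas Rps9 averaged 12.65 ± 0.12 in knockout arrays and 12.32 ± 0.26 in wildtype arrays. The difference of Rps9, 0.33 over all arrays, was 0.19 when wildtype replicate 1 was left out. Rps6, the protein of the small subunit that is phosphorylated downstream of mTOR, differed by 0.11 (95% confidence interval -0.10 to 0.32). Rpsa, also known as the laminin receptor and the brightest member, differed by 0.12 (-0.10 to 0.34). Rps20 and Rps29, proteins of the head of the small subunit, differed by 0.069 (-0.14 to 0.27) and 0.071 (-0.15 to 0.29). For these 4 genes the interval includes 0 and the median of all members alike.

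The subunits were set side by side without a test. The median difference was 0.21 over 39 large subunit genes and 0.25 over 23 small subunit genes. Differences lay above 0 for 38 of 39 and 22 of 23. At an unadjusted p under 0.05, 11 of the large (28.2%) and 8 of the small (34.8%) subunit genes were higher, beside 8.39% of all tested genes. Knockout arrays lay above all wildtype arrays for 10 of the large (25.6%) and 5 of the small (21.7%) subunit genes, beside 7.1% of all tested genes. When wildtype replicate 1 was left out the median was 0.11 for the large and 0.15 for the small subunit. The difference of the medians, large minus small, was -0.039, and it ran from -0.075 to 0.034 when 1 array was left out. Median deviations of each array from the gene means were nearly equal for both subunits. They were 0.12, 0.17, 0.068 and -0.015 for the large and 0.17, 0.16, 0.079 and -0.020 for the small subunit in knockout replicates 1 to 4. In wildtype replicates 1 to 3 they were -0.27, -0.10 and 0.033 for the large and -0.28, -0.12 and 0.030 for the small subunit.

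**Figure D2:**
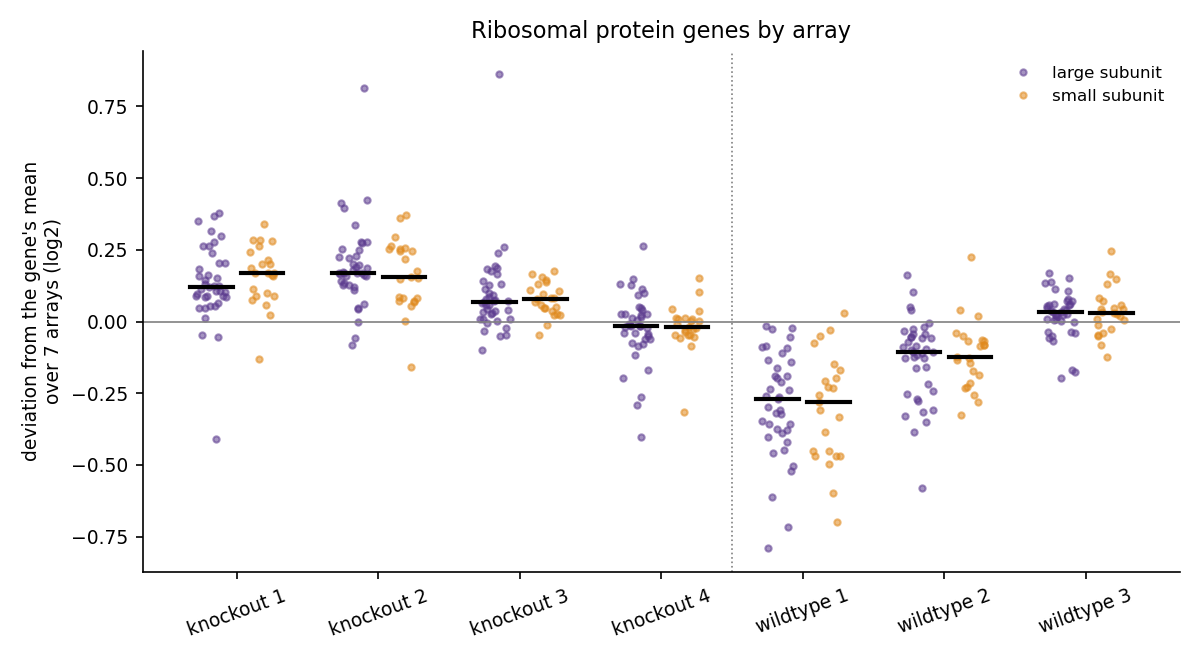
Deviation of each ribosomal protein gene from its mean over the 7 arrays (log2, 1 point per gene), for knockout arrays 1 to 4 and wildtype arrays 1 to 3, with bars at the median of each subunit. Wildtype array 1 lies lowest for both subunits, and knockout array 4 and wildtype array 3 have medians near 0.

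The members moved together from array to array, and the order of the arrays crossed the genotypes. The median deviation over all 62 genes was 0.14, 0.17, 0.070 and -0.015 in knockout replicates 1 to 4, against -0.28, -0.11 and 0.031 in wildtype replicates 1 to 3. Knockout replicate 4 thus lay below wildtype replicate 3. Wildtype replicate 1 was the lowest of the 7 arrays for 47 of 62 members (75.8%), against 17.1% of the other tested genes. Knockout replicate 1 or 2 was the highest for 26 and 29 members. Wildtype replicate 3 exceeded knockout replicate 4 for 42 of 62 members (67.7%), against 44.0% of the other tested genes. Within the wildtype group the members were more spread than other genes, with a median SD of 0.17 for members against 0.14 for other genes, while within the knockout group it was 0.0999 for members against 0.15 for other genes. The median difference was 0.12 when wildtype replicate 1 was left out and 0.30 when wildtype replicate 3 was. With wildtype replicates 1 and 2 both left out, 1 wildtype array remained, which is then assumed to vary like the knockout arrays. The median was then 0.053, with 49 of 61 differences above 0.

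Markers of endothelial and mural cells were highest in wildtype replicates 1 and 2, the arrays with the lowest ribosomal protein values. Of 15 listed markers 14 were measured, among them Cldn5, Flt1 and Kdr, and 0 of 14 had a difference above 0. Their median difference was -0.29, with 5 lower at an unadjusted p under 0.05 and 0 passing (smallest limma adjusted p = 0.315). Over all tested genes 3.54% were lower at that unadjusted threshold. These markers were also summarized by array. Their median deviation was -0.032, -0.14, -0.15 and -0.21 in knockout replicates 1 to 4, against 0.39, 0.45 and -0.26 in wildtype replicates 1 to 3. Their summed level on the linear scale ran from 12071 to 13343 in knockout and from 10900 to 19021 in wildtype arrays. On all arrays 5 of the 14 exceeded the background level and 7 did so on none. In sorted bulk cells, fewer cells of a type and less RNA per cell cannot be told apart, and the part of these cells in the ribosomal protein values was not tested. Monocyte and neutrophil markers had positive differences, as the ribosomal protein genes did. For monocytes 4 of 5 tested markers were above 0 with a median of 0.92, and 3 (60%) were higher at an unadjusted p under 0.05. Over all tested genes 8.39% were. Of the 6 measured monocyte markers 0 exceeded the background level on all arrays and 2 did so on none. For neutrophils 8 of 8 were above 0 with a median of 0.62, and 1 was higher (12.5%). Of these 8 markers 4 exceeded the background level on all arrays. The neutrophil median deviation was -0.61, -0.049, 0.54 and 1.27 in knockout replicates 1 to 4, against -0.46, 0.098 and -0.56 in wildtype replicates 1 to 3. Knockout replicate 1 was thus the lowest array. Both lists were highest in knockout replicate 4, with median deviations of 0.88 and 1.27, the knockout array with the lowest ribosomal protein median. Their summed levels on the linear scale were 3137 to 7193 in knockout and 2230 to 3456 in wildtype arrays for monocytes, and 12276 to 35862 in knockout and 12521 to 19771 in wildtype arrays for neutrophils. Their part was not tested either. Over 9 microglial markers the median deviation of the 7 arrays stayed between -0.079 and 0.075. Border-associated macrophage markers had 3 of 8 differences above 0 and a median of -0.070. No measured marker of T and natural killer cells, B cells, astrocytes, oligodendrocytes, neurons or erythroid cells reached the background level on any array.

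Expressed paralogs were compared with their usual copies within each array. Levels of different probe sets cannot be set against each other, so only the change of the log2 difference between genotypes was tested, by an exact permutation test over the 35 splits of the 7 arrays (two-sided, smallest possible p = 0.0286). Of 8 listed pairs 6 could be compared, and 0 passed after adjustment over the 6. Rpl22l1 minus Rpl22 was -1.56, -1.62, -1.57 and -1.56 in knockout replicates 1 to 4, against -1.49, -1.72 and -1.98 in wildtype replicates 1 to 3. The knockout values were nearly constant and lay inside the wildtype range. The mean differed by 0.16 between genotypes (exact permutation p = 0.229, adjusted p = 0.514). It was 0.28 when wildtype replicate 1 was left out and 0.029 when wildtype replicate 3 was. In mice that lack Rpl22, Rpl22l1 is known to increase; here Rpl22 was also higher in knockout arrays, at 12.07 ± 0.10 (SD, n = 4), than in wildtype arrays, at 11.63 ± 0.39 (SD, n = 3), a difference of 0.44 (SE 0.16, limma adjusted p = 0.366). Its 3 wildtype values were 11.27, 11.57 and 12.05, and wildtype replicate 3 overlapped the knockout range of 11.93 to 12.15. The difference of Rpl22 was 0.26 when wildtype replicate 1 was left out.

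Rpl36al, a copy of Rpl36a on another chromosome whose symbol falls outside the rule, read 11.87, 11.91, 11.70 and 11.70 in knockout arrays, against 11.19, 11.18 and 11.53 in wildtype arrays. Its genotypes did not overlap, and it differed by 0.50 (SE 0.12, limma adjusted p = 0.315). Rpl36a differed by 0.33 (SE 0.14, limma adjusted p = 0.398) with overlapping values, and by 0.16 when wildtype replicate 1 was left out. The log2 difference between the copies, Rpl36al minus Rpl36a, was 0.17 higher in knockout arrays (exact permutation p = 0.257, adjusted p = 0.514). It was 0.28 when wildtype replicate 1 was left out and 0.065 when wildtype replicate 2 was.

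The pair with the smallest p was Rps4l minus Rps4x. Rps4x encodes the X-linked protein of the small subunit, and RefSeq lists Rps4l as a transcribed pseudogene. The log2 difference was -2.41, -2.32, -1.97 and -2.22 in knockout arrays, against -2.04, -1.80 and -1.87 in wildtype arrays. Knockout replicate 3 lay inside the wildtype range and the other 3 below it. The mean differed by -0.32 between genotypes (exact permutation p = 0.0857, adjusted p = 0.514). Rps4l by itself differed by -0.14 (95% confidence interval -0.40 to 0.12) and Rps4x by 0.18 (-0.039 to 0.40). For Rps4x every knockout array lay above every wildtype array, but only barely. Its lowest knockout value was 12.1825 and its highest wildtype value 12.1812.

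The paralogs known from other tissues were dim. Rpl3l, Rpl10l, Rpl39l and the usual copy Rpl39 did not exceed the background level on any array. They stay in the counts and medians of the 62 members, but their own differences are among the least certain. Rpl39l scattered within the knockout group, at 7.75, 8.97, 9.02 and 7.87, against 7.96, 7.57 and 7.96 in wildtype arrays. Knockout replicates 2 and 3 were high and the other knockout arrays lay among the wildtype values. Rpl7l1, which acts in ribosome assembly, differed by 0.055 (-0.21 to 0.32) and its usual copy Rpl7 by 0.087 (-0.11 to 0.29). The log2 differences Rpl3l minus Rpl3, Rpl7l1 minus Rpl7 and Rpl39l minus Rpl39 each had an adjusted p of 0.857 by the exact permutation test. RefSeq names 212 pseudogenes after 45 of the 62 members, up to 24 for Rpl31, and Rpl32l (difference 0.32, SE 0.14) may likewise share sequence with Rpl32. Whether the probes tell such copies apart was not tested.

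**Figure D3:**
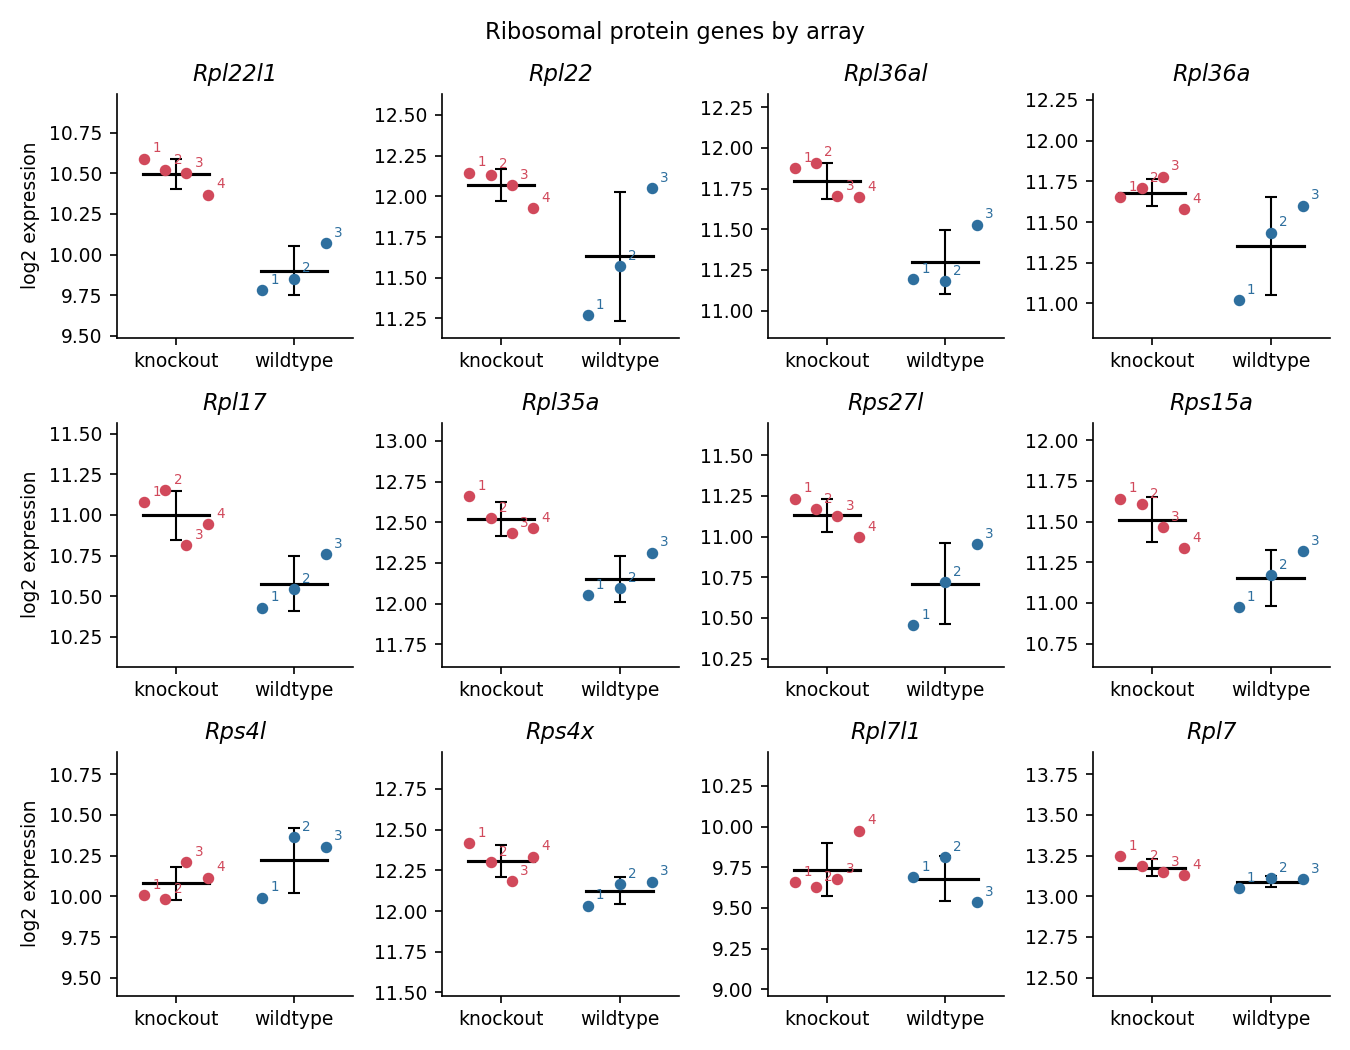
Log2 expression of 12 ribosomal protein genes in knockout arrays (red, numbered 1 to 4) and wildtype arrays (blue, numbered 1 to 3), with the mean and SD as black lines. Each panel spans the same log2 range around its own centre. Every knockout array lies above every wildtype array for Rpl22l1, Rpl36al, Rpl17, Rpl35a, Rps27l, Rps15a, Rps4x and Rpl7. The gap is barely visible for Rps4x. It is also narrow for Rpl7 (lowest knockout value 13.130, highest wildtype value 13.112) and Rps15a (11.337 and 11.317).

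The members were among the brightest genes on the array, and the differences were smaller where the signal was higher. Their median level of 12.31 lay at the 97.7th percentile of the tested genes, and the brightest value of any row was 14.34. Over the 21 dimmest members, at 8.16 to 11.60, the median difference was 0.31, with 10 higher at an unadjusted p under 0.05. They include Rpl39, Rpl39l, Rpl10l and Rpl3l, which lay below the background level on every array. The threshold was passed in the same direction by 8.39% of all tested genes. Over the next 20 it was 0.25 with 7 higher, and over the 21 brightest, at 12.76 to 13.42, it was 0.17 with 2 higher. The genes also have short spans, with a median of 3310.5 bases against 21308 over all tested genes. Of the 62 members 48 were in the brightest 10% of tested genes, 35 in the 10% with the shortest spans and 29 in both. The 953 other genes in the brightest 10% had a median difference of 0.026, and 11.1% of them were higher at an unadjusted p under 0.05. The 112 other genes that were both among the brightest and among the shortest had a median of 0.16, with 101 above 0 and 25.0% higher at that threshold. Their median deviations, 0.11, 0.091, 0.085 and 0.0047 in knockout replicates 1 to 4 against -0.16, -0.11 and 0.0040 in wildtype replicates 1 to 3, ran in nearly the same order as those of the ribosomal protein genes. The comparison with short spans was added after the analysis plan was fixed. With each array's trend on gene span removed, the median of the members was 0.16 when the trend was fitted over tested genes and 0.22 when fitted over all genes with a symbol, a version chosen after seeing the data.

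**Figure D4:**
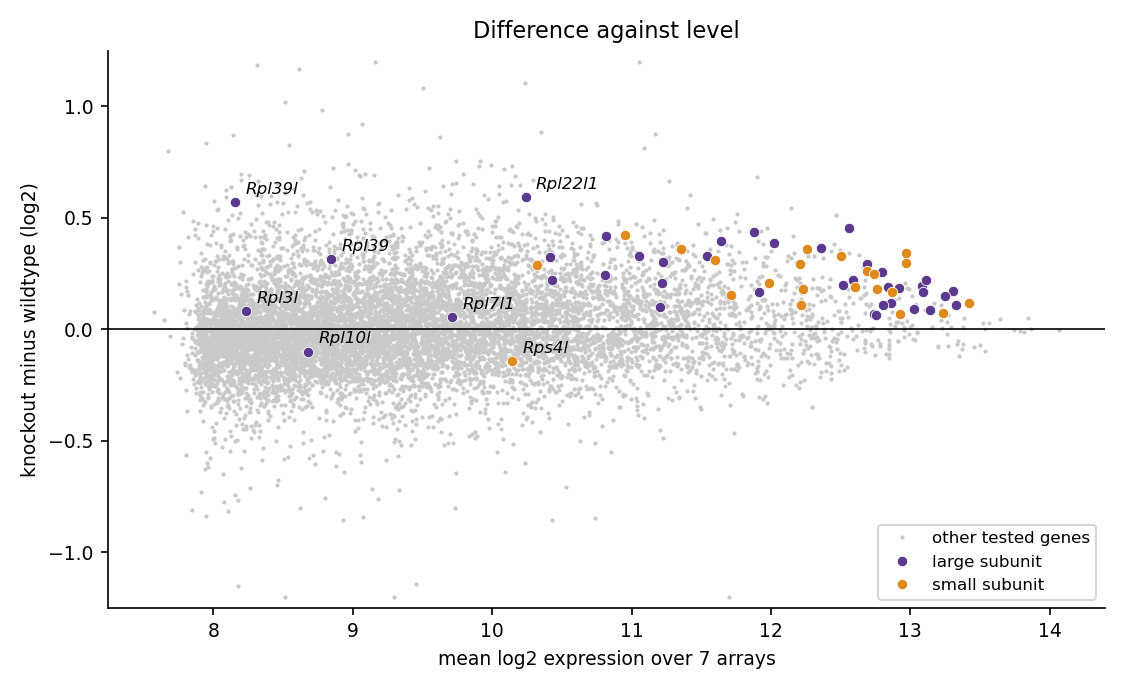
Difference between knockout and wildtype microglia (log2) against mean log2 expression over the 7 arrays for large subunit genes (purple), small subunit genes (orange) and the other tested genes (grey, drawn at the edge where beyond 1.2 in size). Nearly all ribosomal protein genes lie above 0 on the right of the plot, and the labelled members lie on both sides of 0.

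Genes that work with the ribosome were counted from lists chosen with earlier results of these data known, and 0 genes of these lists passed in limma over all genes. Translation factors whose mRNAs also carry the TOP motif had 17 of 19 differences above 0, a median of 0.13 and 4 higher at an unadjusted p under 0.05 (21.1%). Over all tested genes 8.39% were higher and 3.54% lower at that threshold, and 48.6% had a difference above 0. Eif3k and Eif3h, subunits of the initiation factor that holds the small subunit, differed by 0.39 (SE 0.12) and 0.33 (SE 0.11), and both had knockout arrays above all wildtype arrays. Eef1b2, an exchange factor of elongation, differed by 0.55 (SE 0.21), with overlapping genotypes. Btf3, which shields nascent chains, differed by 0.30 (SE 0.098). Limma adjusted p for these 4 genes lay between 0.320 and 0.372.

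Other initiation and elongation factors had 9 of 20 differences above 0 and a median of -0.014. At an unadjusted p under 0.05, 1 gene (5%) was higher, Eif5a (0.29, SE 0.097), beside 8.39% of all tested genes. Ribosome biogenesis factors, which process ribosomal RNA and assemble subunits in the nucleolus, had 21 of 44 above 0 and a median of -0.0061. By the same unadjusted threshold 3 were higher (6.82%), beside 8.39% of all tested genes, and 1 was lower. Among them were Nhp2 at 0.42 and Nob1 at -0.34. The other 2, Pno1 and Rrp12, did not reach the background level on any array, and Nob1 did so on 1 array. These medians were close to that of all tested genes.

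RNA polymerase I machinery, which transcribes ribosomal RNA and shares some subunits with other polymerases, had 11 of 18 differences above 0 and a median of 0.11. At an unadjusted p under 0.05, 6 genes were higher (33.3%), beside 8.39% of all tested genes, which is also the share to set beside the next 3 lists. Of its 19 genes on the array 6 exceeded the background level on all arrays and 9 did so on none. The 4 with the smallest p were Polr1c and the shared subunits Polr2k at 0.53, Polr2e at 0.38 and Polr2f at 0.43, with limma adjusted p from 0.315 to 0.361. Polr1c did not reach the background level on any array. Signal recognition and nascent chain genes had 15 of 20 above 0 and a median of 0.12. In this list 4 genes were higher (20%), Srp9 at 0.44, Btf3 at 0.30, Sec61g at 0.38 and Ssr4 at 0.49. Mitochondrial ribosomal protein genes, which build the separate ribosome of mitochondria, had 57 of 63 above 0, a median of 0.25 and 22 higher (34.9%). Many of them were dim. Of the 76 on the array 17 exceeded the background level on all arrays and 33 did so on none. Oxidative phosphorylation genes, which encode the respiratory chain, had 36 of 38 above 0, a median of 0.32 and 22 higher (57.9%), with Ndufb9 at 0.62, Ndufv2 at 0.69, Atp5j at 0.56 and Uqcr11 at 0.67.

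Regulators of TOP mRNA translation had 8 of 19 differences above 0 and a median of -0.060. By the unadjusted threshold 0 genes were higher, beside 8.39% of all tested genes, and 1 was lower, beside 3.54%. That gene was Sesn2, an inhibitor of mTOR complex 1, which averaged 9.58 ± 0.17 in knockout arrays (SD, n = 4) and 9.92 ± 0.11 in wildtype arrays (SD, n = 3), a difference of -0.34 (SE 0.12, limma adjusted p = 0.348) without overlap. Rheb, which activates mTOR, differed by 0.25, and Eif4ebp1 and Mtor did not reach the background level on any array. The Myc and p53 list, which includes targets known to respond to failed ribosome assembly, had 3 of 11 above 0 and a median of -0.027, and Sesn2, which is on both lists, was its 1 lower gene. Its p53 targets Ccng1 and Cdkn1a differed by 0.32 (SE 0.16) and -0.10 (SE 0.10). Ribosome quality control genes had 4 of 11 above 0, a median of -0.042 and 0 genes past an unadjusted p of 0.05, with Edf1 at 0.24. Fau, which encodes a small subunit protein fused to a ubiquitin-like protein, differed by 0.23 (SE 0.13).

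**Figure D5:**
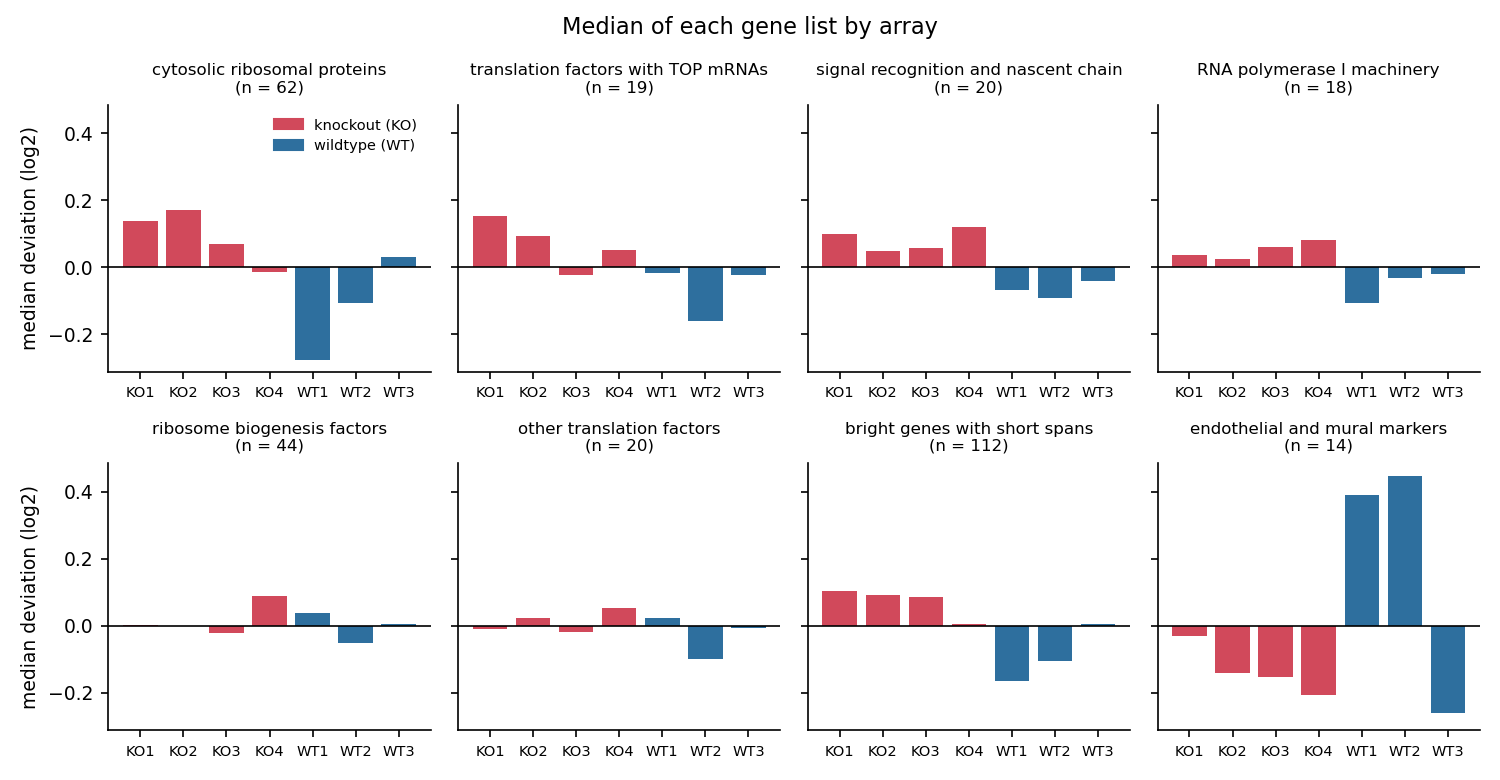
Median deviation of each list's tested genes from their means over the 7 arrays (log2, bars), for knockout arrays 1 to 4 (KO, red) and wildtype arrays 1 to 3 (WT, blue), with the number of genes above each panel. Ribosomal protein genes and other bright genes with short spans are lowest in wildtype arrays 1 and 2, the arrays in which endothelial and mural markers are highest.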

How the data were processed

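Expression was measured in 7 samples of microglia, with 1 array each. The deposited values are log2 expression per probe set, and per the submitters' processing notes the authors used RMA and Affymetrix Expression Console 1.1. No genome build for the array design was given in the sources used here. The table held 28846 rows, of which 19572 had 1 gene symbol and all of these matched a reference gene table (GRCm38.p6) by Entrez identifier. These cover 19505 genes, each represented by its brightest probe set. Genes above the array median over genes with a symbol (7.92 to 7.99) in at least 3 arrays were tested (10004). The test was limma 3.58.1 in R 4.3.3, with Benjamini-Hochberg adjustment over all of the tested genes at 0.05. For arrays, their number limits the precision. The 5222 rows with neg tags were read as negative controls. In simulated data with 10004 genes, limma called 1 of 67 genes changed by 0.3 on the log2 scale, 61 of 67 changed by 1 and 66 of 66 changed by 2.

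The members, lists, pairs and tests were chosen with earlier results of these data known. Named genes are B2m, the paralog pairs, the 12 members with the smallest p, the 5 smallest differences and any below 0, the 3 brightest, members with known roles (Rplp0, Rplp1, Rpsa, Rps6, Rpl5, Rpl11, Rps19) and up to 4 genes of each related list by smallest p. Rpl15, Rpl35, Rpl31, Rpl32 and Rps21 were named outside this rule for their sequence or scatter. Alternatives covered the filter, the variance prior, array weights, normalization, probe sets, gene span and left-out arrays.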

Additional observations from a re-analysis of the deposited data

Results flagged for a closer look

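Groups of 4 knockout arrays were searched for a lone distant value by Dixon's test, over 62 genes, 6 pairs and 3 medians. Chance gives about 1 such group in 20, and 2 of 71 groups were found. Rpl7l1 read 9.98 in knockout replicate 4, above 9.63 to 9.68 in the other knockout arrays. Rps21, a small subunit protein, read 12.22 in knockout replicate 4, below 12.37 to 12.39 in the other knockout arrays.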

How the results depend on the processing

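No ribosomal protein gene passed in limma under any of 19 alternatives, and 0 paralog pairs passed under the 16 that could change a pair. The number of members above 0 ran from 49 to 60. The genes called among all tested, 5 in the report, were 2 to 22 with 1 array left out and 2 with wildtype replicate 1 left out together with either wildtype replicate 2 or knockout replicate 4. The 19 members higher at an unadjusted p under 0.05 became 33 when the variance prior followed intensity, robustly fitted or not (8.82% and 8.85% of all tested genes were higher without and with the robust fit), 11 after repeated quantile normalization (6.81%), 9 after centring on array medians (6.47%) and 5 to 31 with 1 array left out. They became 1 without wildtype replicates 1 and 2, which is 1.64% of members beside 2.17% of all tested genes. They became 9 with 1 lower without wildtype replicate 1 and knockout replicate 4, which is 14.8% of members beside 5.88% of all tested genes. Without wildtype replicates 1 and 2 the medians were 0.053 for all members, 0.048 for the large and 0.056 for the small subunit. The large minus small median was -0.068 with array weights, -0.00839 without wildtype replicates 1 and 2, and -0.075 to 0.034 with 1 array left out. Signs turned for several genes with differences near 0, and for Rpl39, at 0.31 over all arrays and below the background level on each. Rpl6 was -0.00055 and Rpl3l minus Rpl3 0.048 after repeated quantile normalization. Without wildtype replicates 1 and 2, Rpl4 was -0.042, Rps20 -0.014, Rps29 -0.015, Rpl39 -0.0013, Rpl3l -0.079 and Rpl7l1 minus Rpl7 0.13. Without wildtype replicate 1 and knockout replicate 4, Rpl7l1 was -0.021, Rps29 -0.00570 and Rpl3l minus Rpl3 0.10. With 1 array left out, Rps29 ran from -0.013 to 0.11, Rpl7l1 from -0.025 to 0.12, Rpl3l from -0.046 to 0.23, Rpl7l1 minus Rpl7 from -0.13 to 0.023 and Rpl3l minus Rpl3 from -0.11 to 0.086. The causes were not tested. The variance priors and array weights do not enter the pair test. Settings whose filter removed Rpl3l, Rpl10l or Rpl39l gave no value for them, so Rpl39l minus Rpl39 had 10 alternatives and Rpl3l minus Rpl3 had 15. No paired analysis was possible because the labels give no replicate numbers that link the groups. Differences near 0.3 are seldom called with 7 arrays, and dim genes near the negative control rows are the least certain.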
